A study of Mus musculus with 18 samples.

Results

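Toll-like receptors are the pattern recognition receptors through which macrophages detect microbial lipids, proteins and nucleic acids. The 5 receptor genes described here, Tlr2, Tlr3, Tlr7, Tlr8 and Tlr9, are the members of a fixed list that have at least 1 row between the study's groups in the authors' deposited table of significant pairwise comparisons. They are 5 of the 5455 named genes with such a row, and they account for 48 rows over 8 transcript entries. Of the 5, Tlr3, Tlr7, Tlr8 and Tlr9 act in endosomes and Tlr2 acts at the cell surface. Rows for the surface receptors Tlr1 and Tlr6 were read beside them, since these pair with Tlr2.

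The 18 samples were RAW264.7 cells, a mouse macrophage-like line, in 6 groups of 3. Construct cells (p2080) were transduced with pINDUCER20-mCITED1, a lentiviral vector that makes mouse CITED1, a coregulator of transcription, when doxycycline is present. They were given doxycycline (100 ng/mL) and interferon-gamma (200 U/mL) together, interferon-gamma alone, doxycycline alone, or neither. Parental cells (RAW) lack the construct and were given doxycycline or nothing, and no parental group received interferon-gamma. In interferon-gamma-treated cells, doxycycline itself and the CITED1 that it induces therefore cannot be told apart. The labels do not say whether the construct line is 1 clone, how long the treatments lasted, or whether the replicates are separate cultures. Cited1 itself had a rebuilt level of 86.7 FPKM with both agents, 11.5 FPKM with interferon-gamma alone, 168 FPKM with doxycycline alone and 0.703 FPKM in untreated construct cells.

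The table holds 1 fold, 1 summed FPKM and 1 q-value (an adjusted p-value) per pair of groups and no value per sample, so no SD, n or depth can be attached to a level and no test of a single receptor was run. FPKM are fragments scaled by transcript length and library size, and can be compared between genes. A group's level was rebuilt from the fold and the sum, and is the authors' value for that group. "Higher", "rose", "lower" and "fell" below refer to rows that the authors called with Cuffdiff at a q of 0.05 or less and at least 2-fold. A gene without a row is not shown to be unchanged. Of the macrophage markers Adgre1, Cd68, Csf1r, Itgam, Lyz2, Spi1, Mertk and Fcgr1, 5 of 8 have a row, with Spi1 at 157 FPKM in untreated parental cells, and no marker of B cells, T cells or fibroblasts has one. Of the dendritic cell markers Flt3, Zbtb46, Clec9a and Xcr1, 3 of 4 have a row. A row marks a called difference between groups, so a marker without one is not shown to be absent from the cells. The macrophage markers Csf1r, Lyz2 and Mertk have none either. In bulk samples, fewer cells of a type and less RNA per cell cannot be told apart.

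Each receptor is a membrane protein with a leucine-rich repeat domain that binds the ligand and a cytoplasmic TIR domain that recruits adaptors. Tlr2 forms pairs with Tlr1 or Tlr6 and recognises bacterial lipopeptides. Tlr3 senses double-stranded RNA and signals through the adaptor Ticam1 (TRIF), whereas Tlr7 senses single-stranded RNA and Tlr9 unmethylated CpG DNA, and both signal through Myd88. Tlr8 is a sensor of RNA breakdown products in humans, and its role in mice is less clear. The endosomal receptors need the chaperone Unc93b1 to reach endosomes and are cut there by proteases, which include cathepsins.

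The promoters of the 3 receptors that were called with both agents over doxycycline alone are shown first, so that the values can be read beside the DNA. A window from 250 bases before to 50 bases after the annotated start was found in RefSeq (build GRCm38.p6) for Tlr2, Tlr3, Tlr8 and Tlr9, 4 of the 5 receptors. Both strands were searched for an interferon-gamma activated site (GAS, TTCNNNGAA), an interferon-stimulated response element core (ISRE, GAAA and GAAA with any 2 bases between), a kappaB-like site (GGG and CC with any 5 bases between) and a PU.1-like site (GAGGAA). The sequences are printed 5′ to 3′ along the gene up to 30 bases after the start, with every match to any of these 4 motifs in capitals. That of Tlr9 lies at chr9:106222348-106222627 (plus strand), that of Tlr3 at chr8:45410351-45410630 (minus strand) and that of Tlr2 at chr3:83841579-83841858 (minus strand).
Tlr9: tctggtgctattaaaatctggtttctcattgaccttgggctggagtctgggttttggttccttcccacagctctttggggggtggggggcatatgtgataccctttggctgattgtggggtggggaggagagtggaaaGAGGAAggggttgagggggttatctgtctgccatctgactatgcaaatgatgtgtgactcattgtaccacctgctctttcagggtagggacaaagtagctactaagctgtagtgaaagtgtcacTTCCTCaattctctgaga
Tlr3: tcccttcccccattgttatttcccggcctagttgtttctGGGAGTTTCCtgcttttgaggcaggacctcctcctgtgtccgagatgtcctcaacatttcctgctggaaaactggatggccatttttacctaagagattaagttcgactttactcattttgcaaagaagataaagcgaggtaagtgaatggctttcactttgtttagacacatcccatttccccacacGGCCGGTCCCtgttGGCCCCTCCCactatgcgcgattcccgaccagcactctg
Tlr2: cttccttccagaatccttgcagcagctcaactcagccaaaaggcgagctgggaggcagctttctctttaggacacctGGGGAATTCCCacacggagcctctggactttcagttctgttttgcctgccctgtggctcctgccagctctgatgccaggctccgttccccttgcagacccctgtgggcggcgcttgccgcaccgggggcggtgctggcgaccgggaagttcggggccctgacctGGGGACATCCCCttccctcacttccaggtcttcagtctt
The capitals are PU.1-like sites in Tlr9 and kappaB-like sites in Tlr3 and Tlr2. Neither GAS nor ISRE letters occur in these 3 windows. The Tlr2 window has 7 overlapping kappaB-like matches at 2 places, bases -173 to -163 and -9 to 3 from the start site, where the first transcribed base is 1. The Tlr8 window, whose sequence is not shown, has 1 GAS match at -106 to -98 and 1 PU.1-like match. Tlr6 has 2 overlapping ISRE cores in 1 of its windows and 2 GAS matches in the other. Of all 32851 promoter windows, 8.30% hold a GAS match, 3.44% an ISRE core, 50.8% a kappaB-like site and 28.3% a PU.1-like site, so kappaB-like letters are as likely as not in any window. A match is a string of letters and not a binding site. Only exact letters were searched, so no match says nothing of near matches within a window or of sites elsewhere.

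In cells without interferon-gamma the surface receptor was the most abundant of the 5. Tlr2 (entry ENSMUST00000029623) had 68.5 FPKM in doxycycline-treated and 64.2 FPKM in untreated construct cells, and 83.9 FPKM in doxycycline-treated and 73.7 FPKM in untreated parental cells. Tlr7 followed, and its main entry (ENSMUST00000060719) lay between 38.4 and 44.1 FPKM in the same 4 groups. These are levels of abundant transcripts in every resting group.

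Tlr9 (ENSMUST00000062241) was low in those groups, at 6.12 FPKM in doxycycline-treated and 5.44 FPKM in untreated construct cells, and 4.47 FPKM in doxycycline-treated and 3.80 FPKM in untreated parental cells. The main entry of Tlr3 (ENSMUST00000209772) had 1.72 FPKM in doxycycline-treated construct cells, and 2.67 FPKM in doxycycline-treated and 2.18 FPKM in untreated parental cells. Tlr8 (ENSMUST00000112170) had about the same level as Tlr3 in parental cells and a lower one in construct cells. With no spread per group, whether neighbours in this order differ, such as Tlr3 and Tlr8 at 2.18 and 1.94 FPKM in untreated parental cells, was not tested. With interferon-gamma alone the order became Tlr9, Tlr7, Tlr2, Tlr3 and Tlr8, and Tlr7 and Tlr2 stood close together at 15.9 and 15.3 FPKM.

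**Figure D1:**
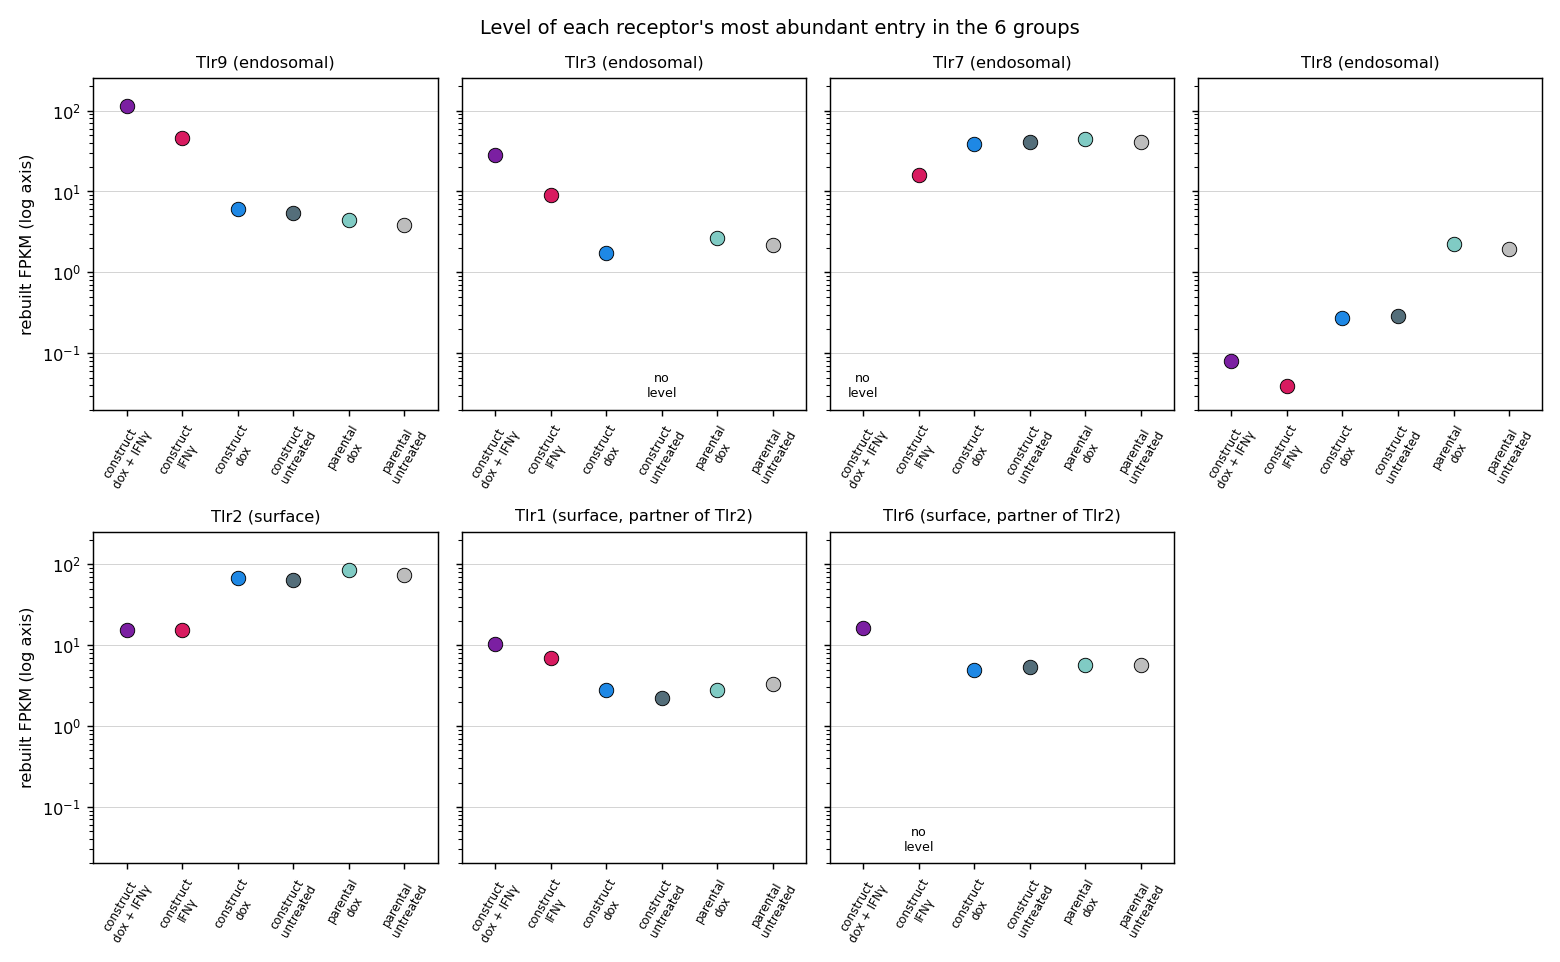
Rebuilt level (FPKM, log axis) of the most abundant entry of each receptor in the 6 groups, 1 point per group with no error, since the table gives none; "no level" marks a group for which no row exists. Tlr9 stands at 113 and 45.9 FPKM in the groups with interferon-gamma, against 6.12 FPKM or less elsewhere, whereas Tlr2 stands at 15.6 and 15.3 FPKM there, against 64.2 FPKM or more elsewhere.

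Doxycycline alone was followed by no call in any of the 5 receptors. In parental cells, where it controls for the inducer, 0 of 5 had a row, and 0.898% of the listed genes were called there. In construct cells, where it induces CITED1, 0 of 5 had a row, and 0.403% of the listed genes were called. Both counts are Cuffdiff calls, and the table gives no unadjusted p-values. Ratios of the rebuilt levels carry no test. In doxycycline-treated over untreated construct cells the log2 ratio was 0.17 for Tlr9, 0.10 for Tlr2, -0.11 for the main entry of Tlr7 and -0.10 for Tlr8. In doxycycline-treated over untreated parental cells it was 0.24, 0.19, 0.11 and 0.20 for the same entries, and -0.28 for the minor entry of Tlr7. The 3 entries of Tlr3 differed more among themselves in parental cells. Tlr3-206 had 0.505 FPKM with doxycycline and 0.936 FPKM without it, a log2 ratio of -0.89, whereas Tlr3-205 stood at 0.29 and Tlr3-201 at -0.21. No entry of Tlr3, nor the minor entry of Tlr7, has a level in untreated construct cells.

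Interferon-gamma without doxycycline moved 3 of the 5 receptors in construct cells, where 50.4% of the listed genes were called, 25.7% higher and 24.5% lower. The count is near that share. Of the 3 receptors, 1 was higher and 2 were lower. Tlr9 rose, with 45.9 FPKM in interferon-gamma-treated and 5.44 FPKM in untreated construct cells, 8.43-fold in the authors' deposited table (q = 3.87e-04). Tlr2 fell, with 15.3 FPKM in interferon-gamma-treated and 64.2 FPKM in untreated construct cells, 4.20-fold in the authors' deposited table (q = 3.87e-04). The main entry of Tlr7 fell as well, with 15.9 FPKM in interferon-gamma-treated and 41.3 FPKM in untreated construct cells, 2.60-fold in the authors' deposited table (q = 3.87e-04). The DNA sensor and the RNA sensor, 2 endosomal receptors with the same adaptor, went opposite ways. The q-value of these rows is the smallest in the table, shared by 71.8% of the rows between the groups.

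Tlr3 has no row against untreated construct cells, so its response to interferon-gamma alone has to be read against other groups. Its main entry had 8.96 FPKM with interferon-gamma alone, which was 4.10-fold above untreated parental cells and 5.21-fold above doxycycline-treated construct cells in the authors' deposited table. Each of these comparisons differs in a second factor, the construct in one and doxycycline in the other. The second full-length entry of Tlr3 (ENSMUST00000034056) had 3.94 FPKM with interferon-gamma alone and 1.20 FPKM in untreated parental cells, 3.27-fold in the authors' deposited table. Both entries were higher with interferon-gamma in each listed row that sets a group with it against a group without it.

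The absence of untreated construct cells from the Tlr3 rows cannot come from the 2-fold limit alone. The main entry reached 28.2 FPKM in 1 group and 1.72 FPKM in another, and no level lies under 2-fold from both. Such gaps are not rare in the table. Of 518 entries that were at least 8-fold different between both agents and doxycycline alone, 48 (9.27%) have no level for untreated construct cells. The cause of the gaps was not tested.

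With CITED1 induced, interferon-gamma again moved 3 of the 5 receptors, where 67.8% of the listed genes were called, 33.7% higher and 34.0% lower. The count is no more than that share. Of the 3 receptors, 2 were higher and 1 was lower. Tlr9 had 113 FPKM with both agents and 6.12 FPKM with doxycycline alone, a rise of 18.4-fold in the authors' deposited table (q = 3.87e-04). The main entry of Tlr3 had 28.2 FPKM with both agents and 1.72 FPKM with doxycycline alone, a rise of 16.4-fold in the authors' deposited table (q = 3.87e-04). Tlr2 had 15.6 FPKM with both agents and 68.5 FPKM with doxycycline alone, a fall of 4.39-fold in the authors' deposited table (q = 3.87e-04). Tlr7 was not called here, and its minor entry (ENSMUST00000112161) had 4.21 FPKM with both agents and 4.06 FPKM with doxycycline alone.

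Some of the dendritic cell markers moved with the same treatment. Xcr1, a chemokine receptor of cross-presenting dendritic cells, had 17.7 FPKM with both agents, 6.61 FPKM with interferon-gamma alone and at most 0.0505 FPKM in the other 4 groups. Clec9a, a receptor for dead cells on the same cell type, had 133 FPKM with both agents, 80.4 FPKM with interferon-gamma alone and 0.0437 FPKM in untreated construct cells. It has no level in the remaining groups. Zbtb46 had 0.575 FPKM with interferon-gamma alone, 0.183 FPKM in untreated construct cells and no level with both agents, and Flt3 has no row. The macrophage marker Adgre1 (F4/80) had 5.03 FPKM with both agents, 7.10 FPKM with interferon-gamma alone, 13.9 FPKM with doxycycline alone and 12.2 FPKM untreated. Cd68 and Itgam were also lower with both agents, at 255 and 20.0 FPKM with both agents, against 661 and 44.0 FPKM with doxycycline alone. Other macrophage markers went the other way. Fcgr1 had 274 FPKM with both agents, 87.5 FPKM with interferon-gamma alone, 15.5 FPKM with doxycycline alone and 14.1 FPKM untreated, and Spi1 had 350 FPKM with both agents and 151 FPKM with doxycycline alone. The part of these changes in the receptor levels was not tested. Marker levels were not summed, because several groups have no level.

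The interferon-gamma responses with and without doxycycline share no group and can be set side by side. Cited1 was not absent from the cells without doxycycline, where it had 11.5 FPKM with interferon-gamma and 0.703 FPKM untreated. For Tlr9 the deposited log2 ratio was 4.20 with doxycycline and 3.08 without it, a difference of 1.13. Over the 1370 entries called higher in both, the median difference was 0.37, with quartiles of 0.08 and 0.69. For Tlr2 the log2 ratio was -2.13 with doxycycline and -2.07 without it, a difference of -0.06, and the 1191 entries called lower in both had a median difference of -0.27. None of these differences was tested. Entries with both levels had a median log2 ratio of 1.02 for both agents over doxycycline and of 0.65 for interferon-gamma over no treatment. Relative to these medians Tlr9 stood at 3.18 and 2.43 and Tlr2 at -3.15 and -2.72. The medians are over entries chosen for having a row, and calls were nearly balanced in direction. With doxycycline 33.7% of the listed genes were called higher and 34.0% lower, and without it 25.7% and 24.5%. Whether the medians hold a general upward shift or a scaling offset was not tested.

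Within interferon-gamma-treated cells, 3 of the 5 receptors were higher when CITED1 was induced and 0 were lower, where 13.2% of the listed genes were called, 6.84% higher and 6.34% lower. All 3 are endosomal. The groups differ in doxycycline as well as in CITED1, and with no interferon-gamma-treated parental group these cannot be told apart. The main entry of Tlr3 had 28.2 FPKM with both agents and 8.96 FPKM with interferon-gamma alone, 3.15-fold in the authors' deposited table (q = 3.87e-04). The second full-length entry of Tlr3 had 12.3 FPKM with both agents and 3.94 FPKM with interferon-gamma alone, 3.13-fold in the authors' deposited table (q = 3.87e-04). Tlr9 had 113 FPKM with both agents and 45.9 FPKM with interferon-gamma alone, 2.45-fold in the authors' deposited table (q = 3.87e-04). The minor entry of Tlr7 had 4.21 FPKM with both agents and 1.35 FPKM with interferon-gamma alone, 3.13-fold in the authors' deposited table (q = 0.0165), and is not called at a q of 0.01 or less.

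Tlr2 had no row in this comparison. Its levels were 15.6 FPKM with both agents and 15.3 FPKM with interferon-gamma alone, a log2 ratio of 0.03. The median log2 ratio of entries with both levels was 0.10, and relative to it Tlr3, Tlr7 and Tlr9 stood at 1.55, 1.54 and 1.19. That median is over entries chosen for having a row and was not shown to be a scaling offset.

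**Figure D2:**
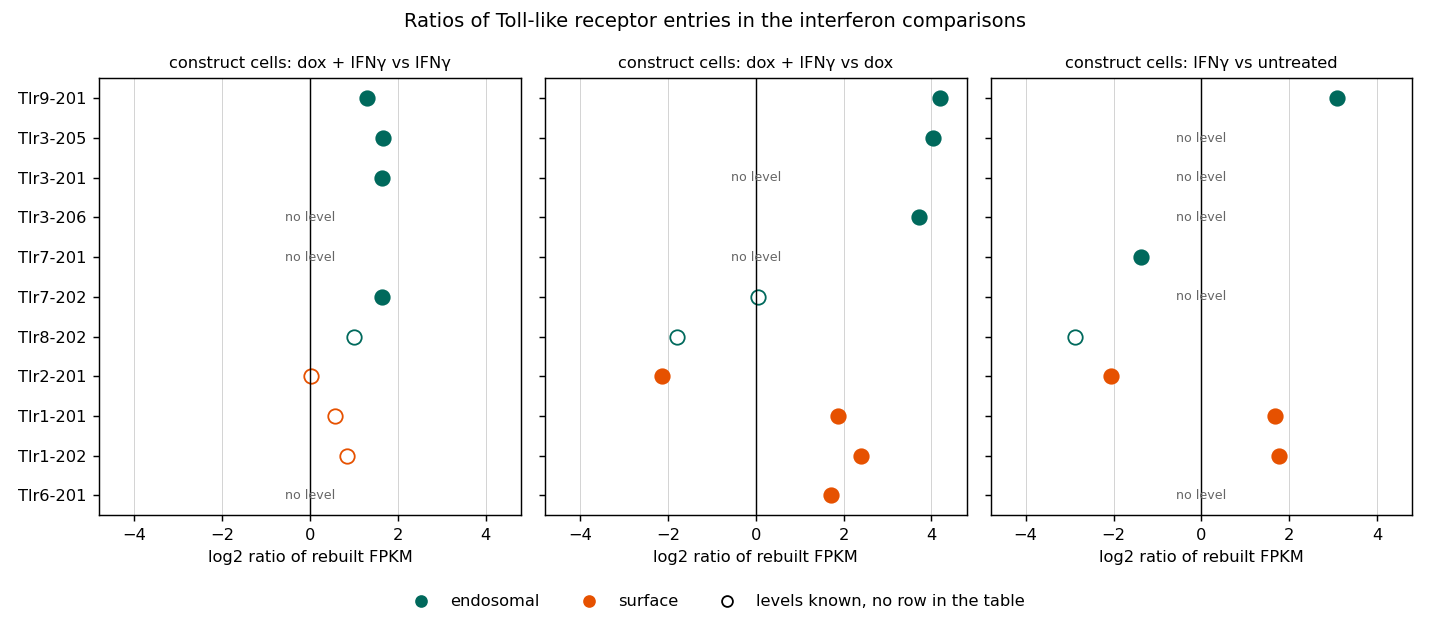
Log2 ratios of the rebuilt levels of every receptor entry in 3 comparisons within construct cells; filled points are rows of the authors' table, open points are ratios of known levels with no row, and "no level" marks entries for which 1 group has no level. Endosomal entries reach 4.20 (Tlr9) in the middle panel, where the surface receptors are split. There Tlr2 stands at -2.13, the entries of Tlr1 at 2.40 and 1.88, and Tlr6 at 1.71. Tlr2 stands at 0.03 in the left panel.

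The 2 entries of Tlr7 give different views of the group with both agents. Tlr7-201, the entry that held between 90.2% and 92.3% of the sum of both entries in the 4 groups that list both, lacks any row with both agents. Tlr7-202 has 4 rows, and interferon-gamma alone is the lower group in each. It had 4.21 FPKM with both agents, 1.35 FPKM with interferon-gamma alone, 4.06 FPKM with doxycycline alone, and 3.66 FPKM with doxycycline and 4.44 FPKM without it in parental cells. In this entry the level was lowest with interferon-gamma alone, and the level with both agents lay near the levels without interferon-gamma. For Tlr7-201 a level of 22.0 to 31.7 FPKM with both agents would be under 2-fold from every other group, in which case no row would be listed, but the level itself is not known. Both entries have the same coding length of 3150 bases in GENCODE M21 and share most of their sequence, so how reads were divided between them is uncertain.

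Each of the 3 listed entries of Tlr3 was higher with both agents than in either parental group. With both agents their levels summed to 48.5 FPKM, of which Tlr3-205 held 58.3%, Tlr3-201 25.4% and Tlr3-206 16.3%. In parental cells the sum was 4.22 FPKM with doxycycline and 4.32 FPKM without it, and Tlr3-205 held 63.4% and 50.5%. Tlr3-205 and Tlr3-201 both encode the full receptor, with a coding length of 2715 bases. Tlr3-206 is a single-exon entry with a coding length of 918 bases, and it had 7.90 FPKM with both agents and 0.601 FPKM with doxycycline alone, 13.2-fold in the authors' deposited table (q = 3.87e-04). GENCODE M21 lists 9 transcripts of Tlr3, and entries that overlap share reads.

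**Figure D3:**
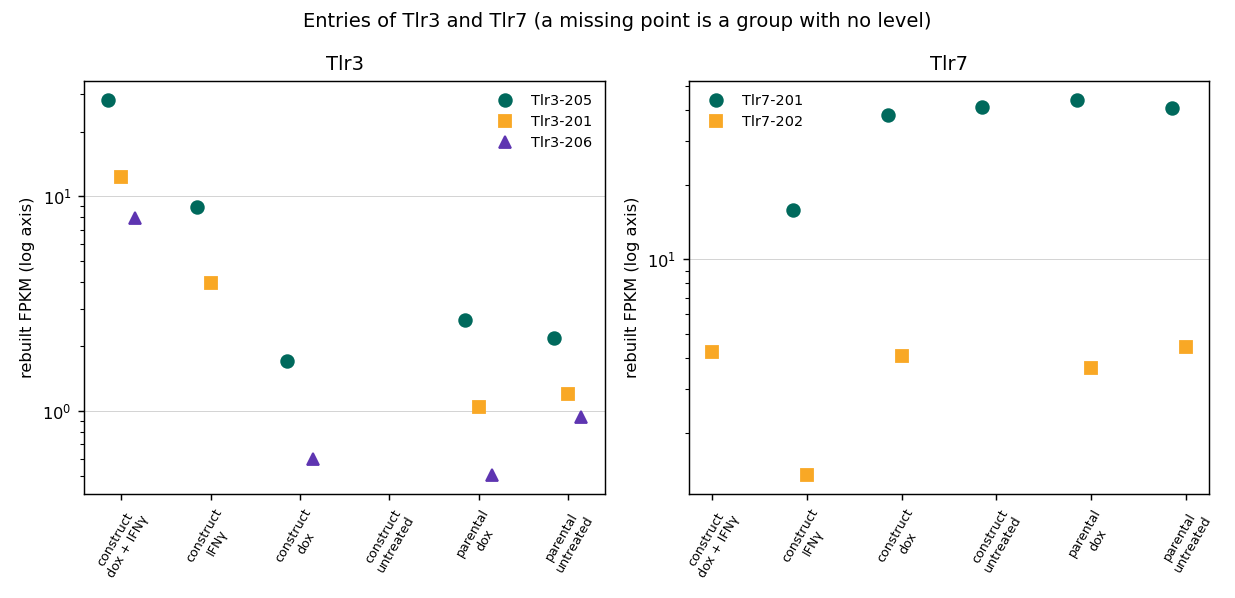
Rebuilt level (FPKM, log axis) of each listed entry of Tlr3 and Tlr7 in the 6 groups, slightly offset within a group; a missing point means that the table gives no level. The Tlr3 entries keep their order in each group that lists all 3, and Tlr7-202 is lowest with interferon-gamma alone, at 1.35 FPKM.

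Tlr8 was called between the construct and parental lines and has no row for doxycycline-treated against untreated cells of either line. In untreated cells it had 0.292 FPKM in construct and 1.94 FPKM in parental cells, 6.63-fold lower in the authors' deposited table (q = 3.87e-04). In doxycycline-treated cells it had 0.272 FPKM in construct and 2.23 FPKM in parental cells, 8.18-fold lower in the authors' deposited table (q = 3.87e-04). It was 1 of 5 receptors called in each of these comparisons, where 2.77% and 3.17% of the listed genes were called lower. All genes called in these comparisons, in either direction, were 4.49% of the listed genes in untreated and 5.61% in doxycycline-treated cells. The comparison of the lines covers transduction, selection and any clonal difference, which cannot be told apart.

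Tlr7 is the direct neighbour of Tlr8 on the X chromosome and has no row between the lines. Its main entry had 41.3 FPKM in untreated construct and 40.9 FPKM in untreated parental cells, a log2 ratio of 0.01. Tlr2 and Tlr9 also had no row between the lines, with log2 ratios of -0.20 and 0.52 in untreated cells and -0.29 and 0.45 in doxycycline-treated cells. Of the co-receptors, Cd36, a scavenger receptor that assists Tlr2, was lower in construct cells too, with 13.6 FPKM in untreated construct and 35.4 FPKM in untreated parental cells, 2.61-fold in the authors' deposited table. Adgre1 had 12.2 FPKM in untreated construct and 28.6 FPKM in untreated parental cells, and its part in the difference in Tlr8 was not tested.

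With interferon-gamma the level of Tlr8 was 0.0793 FPKM with both agents and 0.0397 FPKM with interferon-gamma alone, and no row sets either against a construct group without interferon-gamma. Against untreated parental cells these were 24.5-fold and 48.9-fold lower in the authors' deposited table (q = 3.87e-04 and 0.0205). The ratio was 7.36 between untreated construct cells and interferon-gamma alone, with no row. The 2 levels sum to 0.332 FPKM, below 0.550 FPKM, the smallest sum in any row between the groups, so pairs of this size do not appear in the table whatever their ratio. Levels this low are near what few reads give, and the depth behind them is unknown.

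Endosomal and surface receptors did not divide cleanly by direction. With interferon-gamma alone, 1 endosomal receptor was higher (Tlr9), 1 was lower (Tlr7) and Tlr2 at the surface was lower. With CITED1 induced as well, 2 endosomal receptors were higher (Tlr3 and Tlr9) and Tlr2 was lower. Both partners of Tlr2 went the other way from it. The main entry of Tlr1 (ENSMUST00000059349) had 10.4 FPKM with both agents and 2.83 FPKM with doxycycline alone, 3.68-fold higher in the authors' deposited table. Tlr6 (ENSMUST00000062315), its neighbour on chromosome 5, had 16.1 FPKM with both agents and 4.91 FPKM with doxycycline alone, 3.27-fold higher in the authors' deposited table. Tlr1 also rose with interferon-gamma alone, to 7.02 FPKM in interferon-gamma-treated cells against 2.20 FPKM in untreated construct cells, 3.19-fold in the authors' deposited table.

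The levels of the Tlr2 pair members came close together. In doxycycline-treated construct cells Tlr2 had 68.5 FPKM beside 4.91 FPKM of Tlr6, and with both agents 15.6 FPKM beside 16.1 FPKM of Tlr6. Between both agents and interferon-gamma alone no surface receptor had a row, and Tlr6, with no level for interferon-gamma alone, could not be compared. The log2 ratios there were 0.03 for Tlr2 and 0.57 and 0.85 for the 2 entries of Tlr1, against 1.30 for Tlr9 and 1.66 for the main entry of Tlr3. The minor entry of Tlr7 stood at 1.65, and its main entry has no level with both agents. Tlr8 stood at 1.00 with no row, from levels of 0.0793 and 0.0397 FPKM. With 1 surface member and each member chosen for having a row, no test of endosomal against surface receptors was made.

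The machinery that serves the endosomal receptors was listed in part. The counts below are out of every gene of a list, also those with no row. They stand beside the percentage of the listed genes called the same way. That percentage is over genes with a row only, so count and percentage have unlike bases. Of 8 chaperones and transporters, 3 have a row between the groups. With both agents over doxycycline alone 2 were higher and 0 lower, where 33.7% of the listed genes were higher. Slc15a3, an endosomal transporter of histidine and bacterial peptides, had 89.0 FPKM with both agents and 14.9 FPKM with doxycycline alone. Tasl, an adaptor that links these receptors to Irf5, had 13.7 FPKM with both agents and 6.30 FPKM with doxycycline alone. Of 7 endosomal proteases, 3 were lower and 0 higher in that comparison, where 34.0% of the listed genes were lower, and 4 have no row between the groups. The cathepsin Ctsf stood at 2.52 FPKM with both agents against 30.9 FPKM with doxycycline alone. Cathepsin L (Ctsl) had 78.6 FPKM against 163 FPKM and cathepsin K (Ctsk) 0.390 FPKM against 3.07 FPKM. The median log2 ratio of the called proteases was -2.98, against -1.54 over all genes called lower. With interferon-gamma alone 2 of 7 proteases were lower, where 24.5% of the listed genes were lower. Of the 6 co-receptors of surface receptors 1 was higher, where 25.7% of the listed genes were higher, the Tlr4 regulator Cd180 (RP105), at 156 FPKM with interferon-gamma and 58.3 FPKM untreated.

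Of 20 adaptors and kinases downstream of the receptors, 7 have a row between the groups. With both agents over doxycycline alone 6 were higher and 0 lower, where 33.7% of the listed genes, all with a row, were higher. Myd88, the adaptor of Tlr2, Tlr7 and Tlr9, had 125 FPKM with both agents and 38.8 FPKM with doxycycline alone, and is listed in this comparison but not in that of interferon-gamma with no treatment. Ticam1, the adaptor of Tlr3, had 32.6 FPKM with both agents and 9.91 FPKM with doxycycline alone. Without doxycycline it had 28.9 FPKM with interferon-gamma and 9.40 FPKM in untreated construct cells. Irak2, a kinase of the Myd88 complex, had 73.4 FPKM with both agents and 13.2 FPKM with doxycycline alone. The median log2 ratio of the called members was 1.82, against 1.65 over all genes called higher.

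By count, negative regulators had the most calls of these lists with interferon-gamma alone and with both agents over doxycycline alone. The lists differ in size, so this does not rank them by share. With interferon-gamma alone 14 of 18 were higher and 0 lower, where 25.7% of the listed genes were higher, with a median log2 ratio of 2.24, against 1.54 over all genes called higher. With CITED1 induced 13 of 18 were higher and 0 lower, where 33.7% of the listed genes were higher, with a median of 2.58. Trim30a, which limits Toll-like receptor signalling to NF-kB, had 232 FPKM with both agents, 116 FPKM with interferon-gamma alone, 17.7 FPKM with doxycycline alone and 16.1 FPKM untreated. Socs1, an inhibitor of JAK kinases, had 140 FPKM with both agents and 0.383 FPKM with doxycycline alone. Between both agents and interferon-gamma alone 2 were higher and 1 was lower, Sigirr, a decoy-like inhibitor of receptor signalling, at 0.689 FPKM with both agents and 3.38 FPKM with interferon-gamma alone.

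Of 14 downstream transcription factors, 6 were higher and 0 lower with both agents over doxycycline alone, where 33.7% of the listed genes were higher. Irf5, which acts below Tlr7 and Tlr9, had 223 FPKM with both agents and 45.3 FPKM with doxycycline alone. Of 22 response genes, 10 were higher and 0 lower with both agents over interferon-gamma alone, where 6.84% of the listed genes were higher and 6.34% lower, with a median log2 ratio of 1.41, against 1.30 over all genes called higher. Among them the cytokine Il6 had 3.96 FPKM with both agents and 1.37 FPKM with interferon-gamma alone. Ifnb1, the interferon-beta gene that Tlr3 signalling can induce, had 6.18 FPKM with both agents and 1.40 FPKM with interferon-gamma alone.

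Cytosolic sensors of nucleic acids, which share ligands with Tlr3, Tlr7 and Tlr9, had 10 of 12 members higher and 1 lower with both agents over doxycycline alone, where 33.7% of the listed genes were higher and 34.0% lower. The lower one was the adaptor Mavs. In interferon-gamma-treated cells 4 of 12 were higher with CITED1 induced and 0 lower, where 6.84% of the listed genes were higher. The 4 were Oas2, Ifih1, Ddx58 and Oas1a. Ifih1 (MDA5), a sensor of long double-stranded RNA, had 70.0 FPKM with both agents and 27.0 FPKM with interferon-gamma alone, 2.59-fold in the authors' deposited table, beside 3.15-fold for Tlr3.

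**Figure D4:**
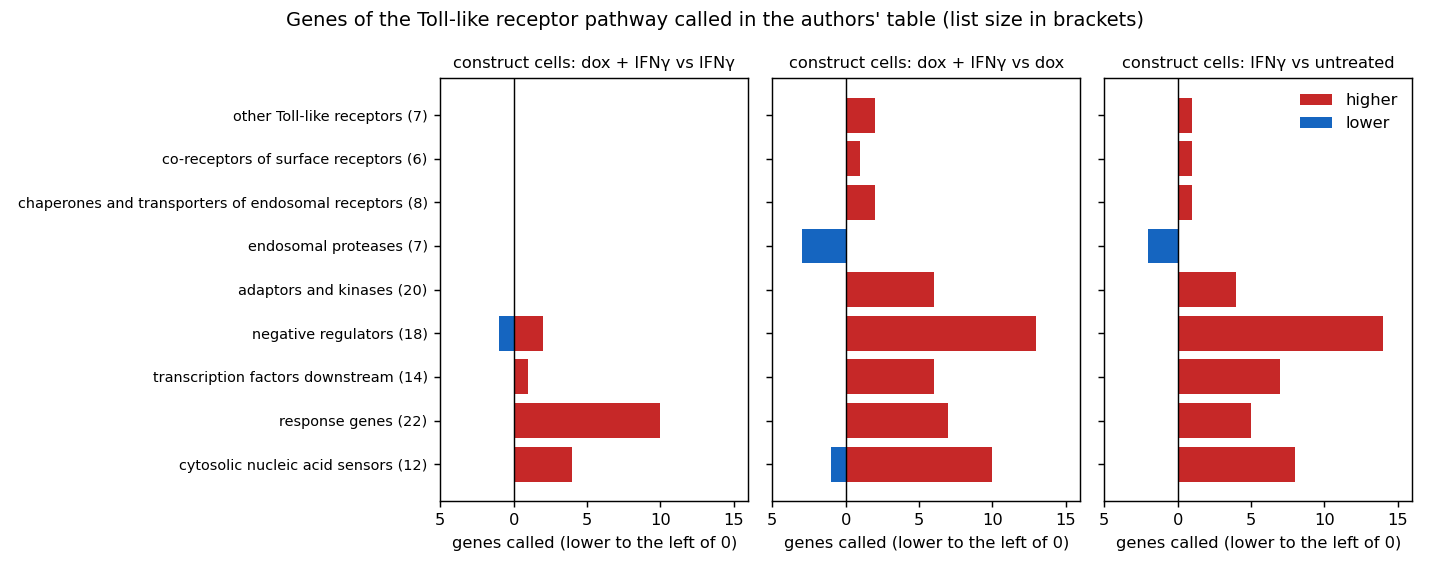
Number of genes called higher (to the right of 0) and lower (to the left) in the authors' table for each list of the Toll-like receptor pathway, with the list size in brackets, in 3 comparisons within construct cells. Endosomal proteases are the list with calls in the lower direction alone, 3 of 7 in the middle panel. Negative regulators have the largest count in the right panel, 14 of 18 higher.

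The genes with the most similar patterns were sought over the construct groups that list each receptor, by the root mean square difference of log2 levels centred on their mean. Over 4 groups and 2409 genes, the nearest to Tlr9 were Xaf1, an apoptosis-related interferon response gene (0.068), the inflammatory caspase gene Casp4 (0.090) and the glycosyltransferase gene Galnt3 (0.102). Xaf1 had 81.8 FPKM with both agents, 31.6 FPKM with interferon-gamma alone, 4.27 FPKM with doxycycline alone and 4.23 FPKM untreated. Over 3 groups and 2506 genes, the genes near Tlr3 included Fcgr1, the high-affinity Fc gamma receptor gene (0.052), and Ifih1 (0.130).

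For the receptors that fell the names differed. The nearest to Tlr2 were Cdc20 (0.043), Skp2 (0.047) and Cep55 (0.051), which act in mitosis, S-phase entry and cell division. Skp2 had 4.83 FPKM with both agents, 4.79 FPKM with interferon-gamma alone, and 19.7 FPKM both with doxycycline alone and untreated. The nearest to Tlr7, over the 3 groups that list its main entry and 2596 genes, were Siva1 (0.005), Fuom (0.009) and Nup37 (0.010), and with 3 groups many genes lie this close. For Tlr8 the nearest, Eldr (0.212), Olfr111 (0.233) and Tmem267 (0.235), were farther off. These are descriptions of 3 or 4 group levels per gene, with no test.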

How the data were processed

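Libraries of poly(A) RNA from 18 samples of RAW264.7 cells, 6 groups of 3, were made with a directional kit, per the labels' protocols. FastQC 0.11.5, STAR 2.5.3a, Cuffdiff 2.2.1, featureCounts and edgeR are named, without roles, per the submitters' processing notes. For the genome build, annotation and depth, the sources used here state nothing. The authors deposited a table of pairwise comparisons that holds, per the file headers, a linear fold (ratio), a total FPKM and a q-value, an adjusted p-value. Of its 112230 rows, 34824 set 2 of the 6 groups against each other. The other 77406 involve groups not analysed here.

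The deposited total FPKM was read as the sum of both groups, so the lower level is the total over 1 plus the fold. Each group was given the median over its rows, and the 30 receptor levels rebuilt more than once differed by at most 0.214%. Percentages are of the 5455 named genes with any row, since the table does not list genes that were tested and not called. Unnamed entries (255) and entries with several names (36) do not enter gene counts. Genes with called entries in both directions count in neither. For a gene in a list, the called entry with the largest sum gives the value. All 8 receptor entries matched GENCODE M21 by identifier and symbol. Tests on samples had been planned only if values per sample were present, and none were.

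Members, lists and alternatives were chosen with earlier results of these data known. Every receptor entry, the 3 genes nearest to each receptor in pattern (at least 1 FPKM in 1 group), and at most the 4 largest folds per list and comparison are named. One gene near Tlr3 is not reported here. Myd88 and Mavs fall outside that rule and were chosen after their values were seen. Rebuilding was tested on simulated data with Python 3.11.15, pandas 2.3.3 and NumPy 2.4.6.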

Additional observations from a re-analysis of the deposited data

How the results depend on the processing

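The count of receptors called, in each of the 7 comparisons, was the same with a minimum of 1 FPKM in one of both groups, with a pseudocount of 1 FPKM and at least 2-fold, after rescaling to a median log2 ratio of 0, and after summing the entries of a gene. These alternatives were applied to receptors already called. A receptor without a row could not be added, so a count of 0 could not change and the others could only fall. At a q of 0.01 or less the minor entry of Tlr7 was no longer called for both agents over interferon-gamma alone, with an unchanged log2 ratio of 1.65, because its q is 0.0165, and the count of receptors called in that comparison was 2 in place of 3. The other calls were kept. Levels read as the lowest or the highest over the rows, in place of the median, moved by less than 1%. No paired analysis was possible because the table holds 1 value per pair of groups and no values per replicate, and for the same reason no replicate could be left out. The fold and q of a row rest on the authors' scaling and on 3 samples per group whose spread is not known. Levels below 1 FPKM, such as those of Tlr8, cannot be given a counting error.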
